A study of Mustela putorius furo with 2 samples.

Results

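YAP1, its paralogue WWTR1 (the gene for TAZ), the DNA-binding factors TEAD1 and TEAD2, and 5 genes known to respond to them or listed with their targets (CCN1, CCN2, CRIM1, AMOTL2 and LATS2) were measured across the cell classes of the newborn ferret cortex. The 9 genes were picked by name, but with earlier results of these data known. The data list 29816 gene names, 21317 of them with at least 1 unique molecular identifier (UMI, a tag that marks 1 captured RNA molecule). YAP and TAZ are coactivators without a DNA-binding domain, and TEAD factors bring them to their target genes. The Hippo kinase cascade, which ends in LATS1 and LATS2, phosphorylates YAP and TAZ and holds them out of the nucleus. In developing mouse cortex YAP is known as a protein of radial glia, the stem cells that line the ventricle and produce neurons and later glia. RNA levels do not show whether YAP or TAZ is in the nucleus.

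The study measured single-cell RNA in dorsal cortex of WT ferrets at postnatal day 3, an age at which radial glia of this folded cortex make both neurons and glia. The tissue was dissociated with papain, captured in 10x Genomics Chromium droplets and sequenced on an Illumina HiSeq. There was 1 group with 2 replicates and no second genotype, age or treatment, so every comparison is between cell classes within the same libraries. The replicates are told apart by a barcode suffix and are called library A and library B. The labels do not say which suffix is which replicate, nor whether they came from separate animals. The p-values rest only on how far classes varied between these libraries, pooled over the classes tested, with the shift between libraries removed. That spread may be technical.

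Library A held 9782 cells and 41836475 UMIs (median 3602.5 UMIs per cell), library B 5005 cells and 18907140 UMIs (median 3068), and 21 barcode sequences occurred in both. Cells were assigned to classes by gates on UMIs of marker genes, and 9446 of 14773 cells that passed the filter (63.9%) fell in a gate of 1 lineage. Of the markers not used in a class's own gate, 4 to 6 per class reached 10 CPM and were at least 2-fold higher there than in the other cells in all 12 classes tested, out of 5 or 6 checked per class. Some of these markers serve in another class's gate. They include HOPX and FOXJ1 (checked in CRYAB glia), CLU (in LIFR glia), SOX9 (in HOPX and CLU glia) and OLIG1 (in oligodendrocyte precursors). The misses included FAM107A in HOPX and CLU glia, which stayed under 10 CPM, PTPRZ1 in the dividing ones, and PPP1R17 and NEUROD1 in EOMES progenitors. Class names stand for these gates on RNA.

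The classes are glia gated by HOPX and CLU, split into dividing (178 cells) and non-dividing (843 cells, called HOPX and CLU glia); glia gated by CRYAB (59 cells), a marker of truncated radial glia; glia gated by LIFR, CITED1 and BBOX1 (259 cells), markers of immature astrocytes; progenitors gated by EGFR and OLIG1 (331 cells); oligodendrocyte precursors (198 cells); progenitors gated by EOMES, which make excitatory neurons, split into dividing (413 cells) and non-dividing (1046 cells, called EOMES progenitors); excitatory neurons (4287 cells); inhibitory neurons (1200 cells); endothelial cells (356 cells); and microglia (207 cells). Levels are in CPM, the UMIs of a gene in all cells of a class and library scaled to 1000000 UMIs of those cells, so a gene is compared across classes and never with another gene. Differences were tested with edgeR's quasi-likelihood test on the sums per class and library (n = 2 libraries per class), with Benjamini-Hochberg adjustment over 12483 genes and a call at an adjusted p under 0.05. A log2 fold change is the first-named class over the second, with its standard error (SE).

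YAP1 RNA was highest in endothelial cells and in the 4 classes of HOPX and CLU, CRYAB and LIFR glia, and its mean was lowest in excitatory neurons. In libraries A and B it measured 96.4 and 116 CPM in endothelial cells, 84.9 and 74.3 CPM in dividing HOPX and CLU glia, 82.6 and 69.2 CPM in CRYAB glia, 68.6 and 92.4 CPM in LIFR glia, and 89.9 and 74.1 CPM in HOPX and CLU glia. The 4 glial classes overlapped one another, and endothelial cells lay above HOPX and CLU glia in both libraries. EGFR and OLIG1 progenitors had 54.5 and 46.9 CPM, below every value of those 4 classes. Dividing EOMES progenitors had 34.1 and 37.2 CPM, EOMES progenitors 15.2 and 15.1 CPM, and oligodendrocyte precursors 13.0 and 14.9 CPM. Inhibitory neurons had 11.8 and 26.8 CPM, excitatory neurons 5.52 and 7.38 CPM, and microglia 5.52 and 18.5 CPM, and the microglial values overlapped with those of both neuron classes.

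HOPX and CLU glia held 5.32-fold more YAP1 RNA than EOMES progenitors (log2 fold change 2.41 ± 0.20 SE, adjusted p = 7.49e-16). Excitatory neurons lay below EOMES progenitors in turn (log2 fold change -1.22 ± 0.26, adjusted p = 0.000159). YAP1 was also lower in EGFR and OLIG1 progenitors than in HOPX and CLU glia (-0.69 ± 0.20, adjusted p = 0.00507) and lower again in oligodendrocyte precursors than in EGFR and OLIG1 progenitors (-2.00 ± 0.39, adjusted p = 0.000101). When each cell was thinned to 1500 UMIs these last calls were lost, at log2 fold changes of -0.80 (adjusted p = 0.0646) and -1.01 (adjusted p = 0.386). Endothelial cells did not pass the test against HOPX and CLU glia (0.33 ± 0.22, adjusted p = 0.249), but did when every gate needed 1 UMI more (adjusted p = 0.0343). Both classes were larger at that setting, because cells could also leave a competing gate. Endothelial cells numbered 89 and 299 in place of 85 and 271, and HOPX and CLU glia 577 and 313 in place of 542 and 301.

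WWTR1 had its highest level in endothelial cells, at 154 and 150 CPM. CRYAB glia had 60.6 and 132 CPM, LIFR glia 81.7 and 76.3 CPM and HOPX and CLU glia 61.9 and 65.7 CPM. The endothelial values did not overlap with any other class tested, whereas CRYAB glia, with 32 UMIs in all, spread widely between the libraries. Dividing HOPX and CLU glia had 48.3 and 37.1 CPM, EGFR and OLIG1 progenitors 30.7 and 40.8 CPM, and microglia 55.2 and 43.1 CPM. In the neuronal lineage WWTR1 was low, at 6.47 and 5.56 CPM in EOMES progenitors, 4.37 and 2.32 CPM in dividing EOMES progenitors, 1.64 and 6.71 CPM in inhibitory neurons and 1.36 and 1.09 CPM in excitatory neurons. Oligodendrocyte precursors had 3.89 and 3.72 CPM, inside the range of the neuronal lineage.

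WWTR1 was 9.76-fold higher in HOPX and CLU glia than in EOMES progenitors (log2 fold change 3.29 ± 0.25, adjusted p = 1.35e-17) and lower in excitatory neurons than in EOMES progenitors (-2.13 ± 0.43, adjusted p = 4.83e-05). It was higher in endothelial cells than in HOPX and CLU glia (1.20 ± 0.20, adjusted p = 2.24e-06), the comparison in which YAP1 did not pass. Along the gliogenic classes it was lower in EGFR and OLIG1 progenitors than in HOPX and CLU glia (-0.92 ± 0.23, adjusted p = 0.000903) and lower in oligodendrocyte precursors than in EGFR and OLIG1 progenitors (-3.15 ± 0.57, adjusted p = 2.6e-05, from 4 and 60 UMIs). Neither of these calls held in thinned cells, where the log2 fold changes were -0.58 (adjusted p = 0.364) and -2.45 (adjusted p = 0.0877).

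**Figure D1:**
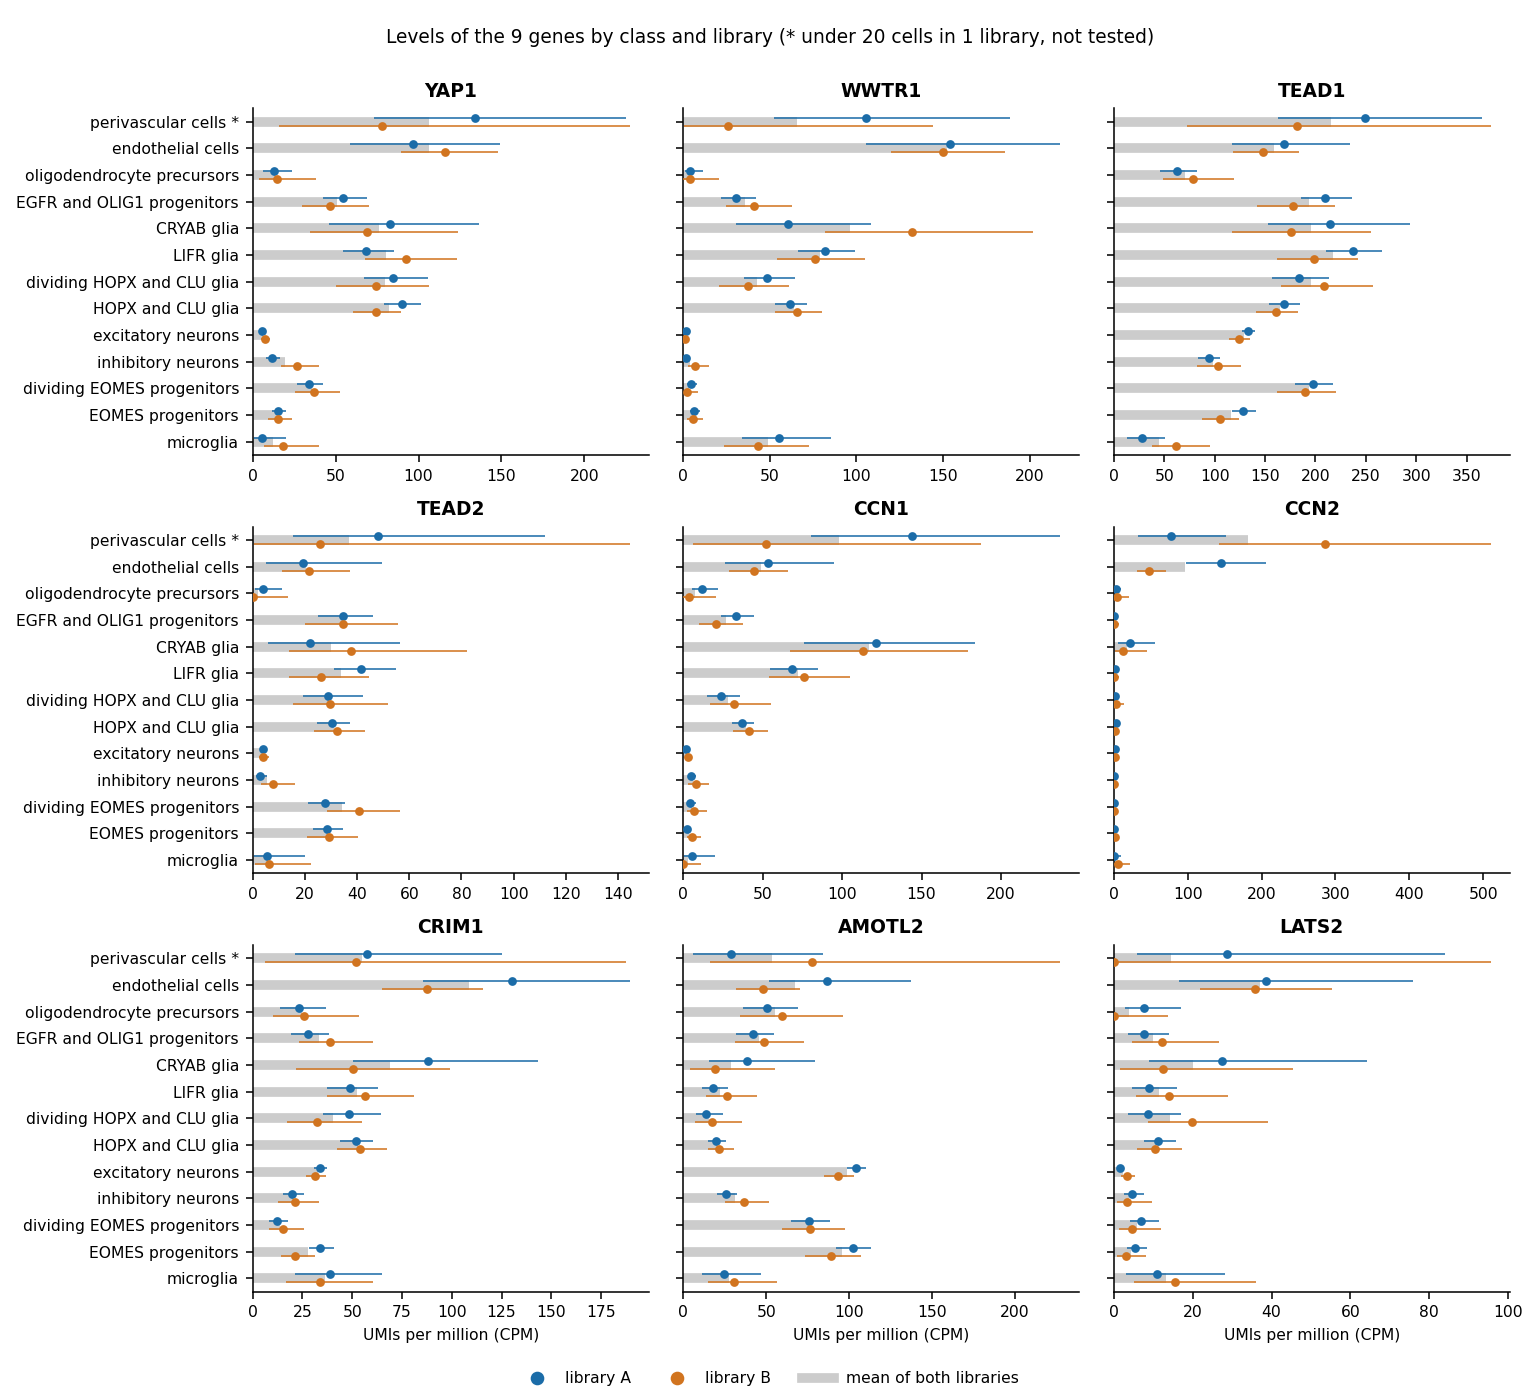
Level of each gene in CPM (x axis) by cell class (y axis); points are library A and library B with exact 95% Poisson intervals, which cover counting error only, and the grey bar is their mean. YAP1, WWTR1, CCN2, LATS2 and CRIM1 have their highest mean among the tested classes in endothelial cells, CCN1 in CRYAB glia (121 and 113 CPM) and AMOTL2 in excitatory neurons (104 and 93.6 CPM).

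The share of cells with a UMI also moves with depth, so it is given as measured and after thinning every cell to 1500 UMIs, which no cell was too shallow for. YAP1 was found in 36.9% and 27.6% of HOPX and CLU glia (median 5095 UMIs per cell) and in 6.49% and 6.21% of EOMES progenitors (median 4128.5 UMIs). In thinned cells it was found in 12.4% and 12.6% of HOPX and CLU glia, 14.1% and 14.8% of endothelial cells (21.2% and 21.0% before thinning) and 2.43% and 2.61% of EOMES progenitors. Excitatory neurons (median 3356 UMIs), the class with the lowest mean level, had 0.692% and 1.28% after thinning (exact 95% intervals 0.429 to 1.06% and 0.732 to 2.07%). Microglia (median 2226 UMIs) had 2.02% and 4.63% after thinning (exact 95% intervals 0.246 to 7.11% and 1.52 to 10.5%) and 2.02% and 5.56% before. The EOMES shares lay above those of excitatory neurons, with intervals apart in library A and overlapping in library B, and inside the microglial intervals. The shares in endothelial cells and in HOPX and CLU glia lay above both microglial values. For WWTR1, which microglia carried in 9.09% and 9.26% of thinned cells, excitatory neurons were the low class, at 0.165% and 0.24%. Endothelial cells (median 1959.5 UMIs) had WWTR1 in 22.4% and 18.1% and HOPX and CLU glia in 7.93% and 6.98% of thinned cells. Before thinning the shares were 32.9% and 26.2% of endothelial cells, 27.5% and 25.9% of HOPX and CLU glia and 0.527% and 0.399% of excitatory neurons.

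The proportion of YAP1 and WWTR1 differed between classes. YAP1 made up 38.5% and 43.6% of the UMIs of YAP1 and WWTR1 together in endothelial cells, and 59.2% and 53.0% in HOPX and CLU glia. In dividing EOMES progenitors it made up 88.6% and 94.1%, against 70.1% and 73.1% in EOMES progenitors, and in excitatory neurons 80.2% and 87.2%. The values of endothelial cells and of HOPX and CLU glia did not overlap, nor did those of the EOMES classes. CRYAB glia, at 57.7% and 34.4%, overlapped with endothelial cells, and LIFR glia, at 45.7% and 54.8%, lay just above them. Microglia stood at the other end, with 9.09% and 30.0%.

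A transcript of YAP1 or WWTR1 together with one of any TEAD gene in the same cell was found in 4.61% and 5.98% of thinned HOPX and CLU glia and 11.8% and 7.38% of thinned endothelial cells. The same was found in 0.405% and 1.31% of EOMES progenitors and 0.231% and 0.319% of excitatory neurons, and in 1.01% and 1.85% of microglia, whose intervals reach 5.50% and 6.53%. Before thinning the shares were 37.8% and 29.9% of HOPX and CLU glia, 23.5% and 13.7% of endothelial cells, 5.14% and 3.92% of EOMES progenitors, 1.12% and 1.36% of excitatory neurons and 1.01% and 3.70% of microglia. In thinned cells the values of HOPX and CLU glia and of endothelial cells lie above those of the other 3 classes named. Those of HOPX and CLU glia lie within reach of the microglial intervals, and the EOMES progenitor and neuron values within or below the microglial range. Dividing HOPX and CLU glia had 1.64% and 3.57%, CRYAB glia 3.23% and 10.7%, and LIFR glia 3.98% and 10.8%. In thinned HOPX and CLU glia YAP1 or WWTR1 was found in 19.6% and 18.3% and any TEAD gene in 23.2% and 29.6%. Whether both met more often than these separate shares give was not tested.

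TEAD1, a TEAD factor, was found in glia, progenitors and neurons alike. It measured 237 and 199 CPM in LIFR glia, 215 and 176 CPM in CRYAB glia, 210 and 177 CPM in EGFR and OLIG1 progenitors, 184 and 208 CPM in dividing HOPX and CLU glia and 169 and 161 CPM in HOPX and CLU glia. Dividing EOMES progenitors had 198 and 189 CPM, EOMES progenitors 128 and 105 CPM and excitatory neurons 133 and 124 CPM, so the dividing progenitors overlapped with dividing HOPX and CLU glia, CRYAB glia and EGFR and OLIG1 progenitors. Endothelial cells had 169 and 148 CPM, inhibitory neurons 94.2 and 103 CPM, oligodendrocyte precursors 62.3 and 78.1 CPM and microglia 27.6 and 61.6 CPM, the lowest class.

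HOPX and CLU glia had slightly more TEAD1 than EOMES progenitors (log2 fold change 0.44 ± 0.12, adjusted p = 0.00179), and excitatory neurons did not pass the test against EOMES progenitors (0.21 ± 0.11, adjusted p = 0.159). Oligodendrocyte precursors had less TEAD1 than EGFR and OLIG1 progenitors (-1.63 ± 0.19, adjusted p = 1.03e-09), a call that held in all 8 alternatives.

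TEAD2, the other TEAD factor followed, was found mainly in glia, EOMES classes and EGFR and OLIG1 progenitors. It measured 28.4 and 29.4 CPM in EOMES progenitors, 27.5 and 40.7 CPM in dividing EOMES progenitors, 30.4 and 32.2 CPM in HOPX and CLU glia and 34.5 and 34.7 CPM in EGFR and OLIG1 progenitors, and over the 7 glial and progenitor classes each overlapped with its neighbour in order of level. Excitatory neurons had 3.91 and 3.91 CPM, inhibitory neurons 2.94 and 7.82 CPM, microglia 5.52 and 6.16 CPM and oligodendrocyte precursors 3.89 and 0 CPM, where a count of 0 in library B allows up to 11.2 CPM. Endothelial cells, at 19.3 and 21.5 CPM, lay between those ranges without overlap with either.

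TEAD2 was lower in excitatory neurons than in EOMES progenitors (log2 fold change -2.76 ± 0.23, adjusted p = 3.67e-15), but HOPX and CLU glia did not differ from EOMES progenitors by the test (0.07 ± 0.20, adjusted p = 0.816). Oligodendrocyte precursors had 3 UMIs of TEAD2, against 62 in EGFR and OLIG1 progenitors, a CPM ratio of 0.0834 (95% counting interval 0.0168 to 0.255, adjusted p = 5.44e-06). Among the UMIs of TEAD1 to TEAD4, TEAD2 made up 2.83% and 3.03% in excitatory neurons, against 17.8% and 20.9% in EOMES progenitors. Counting intervals of these classes lay apart in both libraries. The share in endothelial cells was 8.51% and 10.6%, from 4 and 12 TEAD2 UMIs, against 14.4% and 16.1% in HOPX and CLU glia. These values did not overlap, but the exact 95% intervals of the endothelial shares, 2.37 to 20.4% and 5.61 to 17.8%, included both glial values. The endothelial difference thus lay within counting error.

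Endothelial cells also carried TEAD4, a further TEAD paralogue, at 33.7 and 25.0 CPM, against 1.01 and 0.70 CPM in HOPX and CLU glia (log2 fold change 4.68 ± 0.87, adjusted p = 1.27e-05, from 21 and 4 UMIs). TEAD3 was higher in HOPX and CLU glia than in EOMES progenitors (11.8 and 6.29 CPM against 2.25 and 3.97 CPM, log2 fold change 1.76 ± 0.55, adjusted p = 0.00653).

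**Figure D2:**
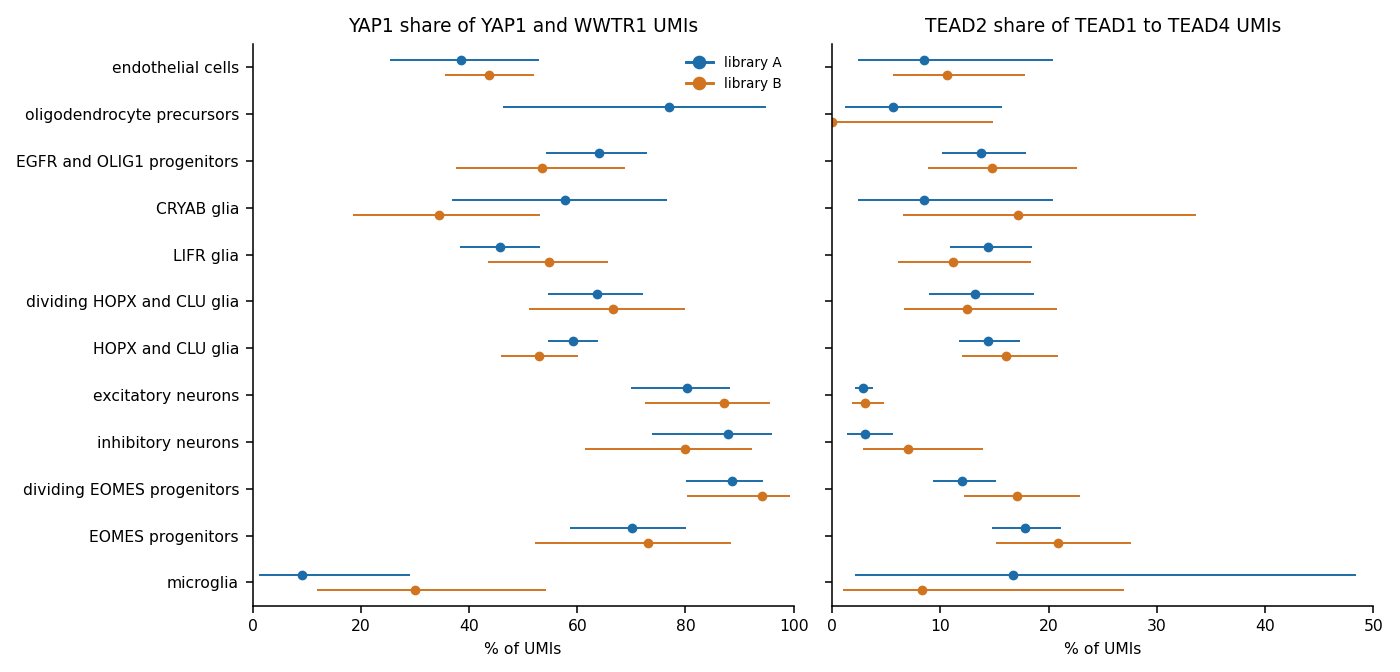
Share of UMIs from YAP1 among YAP1 and WWTR1 (left) and from TEAD2 among TEAD1 to TEAD4 (right), in percent (x axis), by cell class (y axis); points are library A and library B with exact 95% binomial intervals, which cover counting error only, and no point is drawn where a library had under 10 UMIs. Endothelial cells have a lower YAP1 share (38.5% and 43.6%) than HOPX and CLU glia (59.2% and 53.0%), with intervals that overlap in library B. Excitatory neurons have a lower TEAD2 share (2.83% and 3.03%) than EOMES progenitors (17.8% and 20.9%).

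CCN1 (CYR61), a secreted matricellular protein and a much-used readout of YAP and TAZ, was found in glia and endothelial cells. Its level was 121 and 113 CPM in CRYAB glia, 68.6 and 76.3 CPM in LIFR glia and 37.2 and 41.2 CPM in HOPX and CLU glia, with no overlap among the 3 classes. Endothelial cells had 53.0 and 44.7 CPM, dividing HOPX and CLU glia 23.6 and 32.2 CPM, and EGFR and OLIG1 progenitors 33.0 and 20.4 CPM. Oligodendrocyte precursors had 11.7 and 3.72 CPM, and no neuronal class, EOMES class or microglial sum exceeded 7.82 CPM.

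CCN1 was 11.6-fold higher in HOPX and CLU glia than in EOMES progenitors (log2 fold change 3.54 ± 0.32, adjusted p = 2.07e-14). The ratio was smaller in library B alone (log2 2.89). Relative to HOPX and CLU glia it was higher in CRYAB glia (1.45 ± 0.31, adjusted p = 0.00136, from 40 UMIs in CRYAB glia) and in LIFR glia (0.84 ± 0.21, adjusted p = 0.0139), and it was the only one of the 9 genes called in either comparison. In thinned cells neither call held (1.20, adjusted p = 0.56, in CRYAB glia and 0.62, adjusted p = 0.91, in LIFR glia), and DESeq2 did not call it in LIFR glia (adjusted p = 0.0704). Oligodendrocyte precursors had less CCN1 than EGFR and OLIG1 progenitors (-1.65 ± 0.48, adjusted p = 0.012; -2.46 in library B alone), a call lost in thinned cells (-3.03, adjusted p = 0.126) and with gates 1 UMI stricter (-1.44, adjusted p = 0.0543).

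CCN1 is also an immediate early gene, one of those switched on within minutes by growth factors or handling, so 11 such genes are given beside it. Of these, 3 were called higher in CRYAB glia than in HOPX and CLU glia and none lower (median log2 fold change 0.76, against -0.10 over all genes), among them JUNB at 110 and 170 CPM against 40.2 and 33.5 CPM and BTG2 at 275 and 138 CPM against 74.7 and 86.7 CPM. In LIFR glia 5 were higher and none lower (median 0.86, against -0.03), with JUNB at 161 and 189 CPM and ZFP36 at 59.6 and 48.2 CPM, against 19.3 and 19.6 CPM of ZFP36 in HOPX and CLU glia. Against EOMES progenitors, HOPX and CLU glia had 7 of the 11 higher and 1 lower, where 24.6% of all genes were called higher and 23.5% lower. Of all genes, 2.01% were called higher and 2.08% lower in CRYAB glia. In LIFR glia 1.62% were called higher and 0.232% lower. The 11 immediate early genes summed to 3993 and 2768 CPM in CRYAB glia and 3238 and 3247 CPM in LIFR glia. In HOPX and CLU glia they summed to 2206 and 2054 CPM. The CRYAB and LIFR gates also hold dividing cells, with summed division markers of 589 and 271 CPM and 677 and 341 CPM, against 45.3 and 58.7 CPM in HOPX and CLU glia. CRYAB glia also carried the 4 ependymal gate markers at a summed 93.6 and 164 CPM, against 7.78 and 25.9 CPM in HOPX and CLU glia. In LIFR glia these were 12.3 and 16.1 CPM. Cells in a glial gate could not enter the ependymal class. The part of immediate early genes, division or ependymal markers in the CCN1 result was not tested.

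CCN2 (CTGF), the other matricellular target, was high in vascular cells and near 0 in most others. Endothelial cells had 145 CPM in library A (30 UMIs in 22 cells, exact 95% interval 97.6 to 206) and 48.3 CPM in library B (27 UMIs in 24 cells, 31.8 to 70.2). The libraries differed beyond counting error, yet both lay above every other class tested. CRYAB glia had 22.0 and 12.6 CPM from 4 and 2 UMIs, and no other class tested exceeded 6.16 CPM in either library. HOPX and CLU glia had 2.70 and 2.10 CPM, and EGFR and OLIG1 progenitors had no CCN2 UMI in 331 cells, which allows up to 1.29% and 3.03% of cells with a UMI in libraries A and B. Endothelial cells were 33.9-fold above HOPX and CLU glia (log2 fold change 5.08 ± 0.57, adjusted p = 5.94e-11; log2 ratio 5.74 in library A alone).

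The other CCN2 comparisons rest on few UMIs. HOPX and CLU glia had 11 UMIs, against 2 in EOMES progenitors, a CPM ratio of 6.03 with a counting interval of 1.32 to 56.0 (adjusted p = 0.0683). EGFR and OLIG1 progenitors had 0 UMIs, against 11 in HOPX and CLU glia; the counting interval of their CPM ratio reaches 0.975, and they did not pass (adjusted p = 0.0802). CRYAB glia did not pass against HOPX and CLU glia (adjusted p = 0.151) but did when only those classes were fitted (adjusted p = 0.0194). Perivascular cells, with 32 and 13 cells, were too few to test and carried CCN2 at 76.7 and 285 CPM from 8 and 11 UMIs, against 145 and 48.3 CPM in endothelial cells, so they were lower in library A and higher in library B. Perivascular YAP1 was 134 and 77.8 CPM and CCN1 144 and 51.9 CPM.

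CRIM1, a transmembrane protein that binds bone morphogenetic proteins, was found in every class. Endothelial cells had 130 and 87.6 CPM, CRYAB glia 88.1 and 50.3 CPM, HOPX and CLU glia 51.7 and 53.8 CPM and LIFR glia 49.0 and 56.2 CPM. Excitatory neurons had 34.0 and 31.5 CPM, EOMES progenitors 34.0 and 21.5 CPM and dividing EOMES progenitors 12.2 and 15.1 CPM, the lowest class. The endothelial and CRYAB values overlapped, as did most neighbours below them.

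CRIM1 was higher in endothelial cells than in HOPX and CLU glia (log2 fold change 0.93 ± 0.23, adjusted p = 0.000669) and higher in HOPX and CLU glia than in EOMES progenitors (0.77 ± 0.18, adjusted p = 0.000306). It was lower in EGFR and OLIG1 progenitors, at 27.6 and 38.8 CPM, than in HOPX and CLU glia (-0.80 ± 0.23, adjusted p = 0.00576). Thinning ended both glial calls, with 0.34 (adjusted p = 0.399) against EOMES progenitors and -0.19 (adjusted p = 0.811) for EGFR and OLIG1 progenitors.

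AMOTL2, an angiomotin family protein that binds YAP and is itself induced by it, ran opposite to YAP1 and WWTR1 across glia and the neuronal lineage. It measured 104 and 93.6 CPM in excitatory neurons, 102 and 89.0 CPM in EOMES progenitors and 76.0 and 76.7 CPM in dividing EOMES progenitors. HOPX and CLU glia had 19.9 and 21.7 CPM, LIFR glia 18.0 and 26.1 CPM, CRYAB glia 38.6 and 18.9 CPM and dividing HOPX and CLU glia 14.0 and 17.3 CPM. No glial value reached any value of the excitatory lineage. Oligodendrocyte precursors, at 50.6 and 59.5 CPM, and EGFR and OLIG1 progenitors, at 42.2 and 49.0 CPM, lay between these ranges. Endothelial cells, at 86.8 and 48.3 CPM, reached into the excitatory range, and inhibitory neurons, at 25.8 and 36.9 CPM, into the glial one.

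AMOTL2 was lower in HOPX and CLU glia than in EOMES progenitors (log2 fold change -2.28 ± 0.17, adjusted p = 2.6e-17), in each of the 8 alternatives, and excitatory neurons did not pass against EOMES progenitors (0.13 ± 0.12, adjusted p = 0.471). EGFR and OLIG1 progenitors lay above HOPX and CLU glia (1.08 ± 0.24, adjusted p = 0.000307; 0.65 and adjusted p = 0.315 in thinned cells), and so did endothelial cells (1.50 ± 0.29, adjusted p = 2.93e-05; 0.93 and adjusted p = 0.0563 in thinned cells; log2 ratio 2.12 in library A alone). In thinned cells AMOTL2 was found in 3.32% and 4.98% of HOPX and CLU glia, against 12.8% and 12.4% of EOMES progenitors (9.04% and 9.97%, against 36.5% and 28.4%, before thinning). The thinned glial shares were below those of microglia, 7.07% and 5.56% (9.09% and 8.33% before thinning). Whether they stand for background RNA was not tested. Excitatory neurons, at 14.7% and 13.5% (31.2% and 27.4% before thinning), lay above both microglial values.

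LATS2, the kinase that phosphorylates YAP and TAZ and is induced by them, was low in all classes. Endothelial cells had 38.6 and 35.8 CPM, CRYAB glia 27.5 and 12.6 CPM, HOPX and CLU glia 11.2 and 10.5 CPM, EOMES progenitors 5.34 and 3.18 CPM and excitatory neurons 1.53 and 3.26 CPM. The endothelial class stood apart from all others tested. LATS2 was higher in endothelial cells than in HOPX and CLU glia (log2 fold change 1.66 ± 0.46, adjusted p = 0.00265), and higher in HOPX and CLU glia than in EOMES progenitors (1.15 ± 0.44, adjusted p = 0.027, from 48 and 23 UMIs; 1.60 and adjusted p = 0.124 in thinned cells).

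Taking the genes by comparison, HOPX and CLU glia had YAP1, WWTR1, TEAD1, CCN1, CRIM1 and LATS2 higher than EOMES progenitors and AMOTL2 lower. Of the 9 genes 6 were called higher and 1 lower, where 24.6% of all genes tested were called higher and 23.5% lower (48.1% in all), and their median log2 fold change was 1.15, against -0.01 over all genes. Of 25 other Hippo pathway genes 9 were higher and 4 lower (median 0.34). FAT1, an atypical cadherin, had 77.4 and 70.6 CPM in HOPX and CLU glia, against 19.7 and 18.3 CPM in EOMES progenitors (log2 fold change 1.91 ± 0.18, adjusted p = 8.68e-14). LATS1, the paralogue of LATS2, went the other way (37.9 and 31.5 CPM against 61.6 and 62.0 CPM, -0.83 ± 0.16, adjusted p = 1.46e-05), as did the protocadherin DCHS1 (-0.82 ± 0.17, adjusted p = 5.83e-05). Of 12 further YAP and TAZ target genes tested, 6 were higher and none lower (median 1.58, or 1.17 with 1 gene without UMIs set at its bound), led by F3, tissue factor, at 55.8 and 46.8 CPM against 1.12 and 1.59 CPM (5.27 ± 0.35, adjusted p = 1.12e-19). HOPX and CLU glia enter 6 of the comparisons and EOMES progenitors 3, so the comparisons are not independent of each other.

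Excitatory neurons had less YAP1, WWTR1 and TEAD2 than EOMES progenitors, while TEAD1, AMOTL2, CRIM1, CCN1, CCN2 and LATS2 (-1.07 ± 0.48, adjusted p = 0.0869) did not pass. None of the 9 was called higher and 3 were called lower, where 15.6% of all genes were called higher and 14.5% lower (30.2% in all). That split was 1950 higher and 1814 lower, and 1567 and 2310 with no TMM scaling. Of the 25 Hippo genes 1 was higher and 5 lower (median 0.09, against 0.02 over all genes). WWC1 (KIBRA), an upstream activator of the LATS kinases, was the higher one, at 37.4 and 33.2 CPM against 18.3 and 15.9 CPM (log2 fold change 1.12 ± 0.20, adjusted p = 4.12e-06), and LIMD1 was among the lower (-1.37 ± 0.38, adjusted p = 0.00382). Of the 12 further targets 2 were higher and 3 lower, with the four-jointed homologue FJX1 higher (1.06 ± 0.14, adjusted p = 2.87e-09) and ASAP1 lower (-1.48 ± 0.10, adjusted p = 1.5e-18).

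CRYAB and LIFR glia each differed from HOPX and CLU glia in CCN1 alone of the 9 genes. That is 1 of 9 higher and none lower in each, where 2.01% of all genes were called higher and 2.08% lower in CRYAB glia (4.09% in all), and 1.62% higher and 0.232% lower in LIFR glia (1.85% in all). In CRYAB glia 251 genes were called higher and 260 lower, but 321 and 168 with no TMM scaling and 317 and 139 by DESeq2, settings that move the median of all genes by 0.13 and 0.11 on the log2 scale. None of the 25 Hippo genes or of the 12 further targets was called in either class, by edgeR or by DESeq2. By edgeR, 3 genes of each list had an unadjusted p under 0.05 in CRYAB glia and 2 of each in LIFR glia. TEAD1 did not pass in LIFR glia (0.38 ± 0.13, adjusted p = 0.139), but was called when only the classes compared were fitted (adjusted p = 0.0069).

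EGFR and OLIG1 progenitors had less YAP1, WWTR1 and CRIM1 and more AMOTL2 than HOPX and CLU glia. That is 3 of 9 lower and 1 higher, where 15.2% of all genes were called lower and 14.0% higher (29.2% in all), and none of the 4 calls was kept in thinned cells, where the log2 fold change was -0.80 for YAP1, -0.58 for WWTR1, -0.19 for CRIM1 and 0.65 for AMOTL2. TEAD1 and TEAD2 did not pass (0.24 ± 0.13, adjusted p = 0.176, and 0.14 ± 0.25, adjusted p = 0.732), nor did CCN1, CCN2 and LATS2. With gates 1 UMI stricter CCN1 was called lower (-0.65, adjusted p = 0.0402). EGFR and OLIG1 progenitors were not split by division. Their summed division markers were 820 and 806 CPM, against 45.3 and 58.7 CPM in HOPX and CLU glia. The part of division in this comparison was not tested. The phosphatase PTPN14, which binds YAP, was higher at 23.8 and 14.3 CPM against 5.41 and 2.80 CPM (log2 fold change 2.17 ± 0.46, adjusted p = 0.000134), and the upstream kinase STK3 (MST2) lower (-0.62 ± 0.23, adjusted p = 0.037), as 2 of the 25 Hippo genes called in each direction. Of the 12 further targets 1 was higher, NT5E (CD73), and 3 lower, among them the receptor tyrosine kinase AXL at 4.60 and 10.2 CPM against 21.0 and 25.9 CPM (-1.86 ± 0.49, adjusted p = 0.00209).

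Oligodendrocyte precursors had less YAP1, WWTR1, TEAD1, TEAD2 and CCN1 than EGFR and OLIG1 progenitors. That is 5 of 9 lower and none higher, where 6.05% of all genes were called lower and 7.11% higher (13.2% in all). AMOTL2 (0.21 ± 0.27, adjusted p = 0.725) and CRIM1 (-0.41 ± 0.36, adjusted p = 0.564) did not pass, nor did CCN2 and LATS2. PTPN14 was higher again, at 73.9 and 78.1 CPM against 23.8 and 14.3 CPM (log2 fold change 1.80 ± 0.36, adjusted p = 0.000156), and MOB1A, a cofactor of the LATS kinases, lower (-1.73 ± 0.51, adjusted p = 0.0139), among 2 Hippo genes higher and 4 lower of 25. NT5E reached 344 and 279 CPM in oligodendrocyte precursors, against 82.1 and 77.5 CPM (1.94 ± 0.19, adjusted p = 2.12e-12), and RBMS3 fell to 19.5 and 22.3 CPM, against 134 and 126 CPM (-2.75 ± 0.29, adjusted p = 2.37e-11), among 1 further target higher and 3 lower of 12. Of the 11 immediate early genes 7 were lower in oligodendrocyte precursors and none higher.

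Endothelial cells had more WWTR1, CCN2, AMOTL2, LATS2 and CRIM1 than HOPX and CLU glia, while YAP1, TEAD1, TEAD2 and CCN1 did not pass. That is 5 of 9 higher and none lower, where 19.5% of all genes were called higher and 17.0% lower (36.6% in all). The 4 that missed had log2 fold changes of 0.33 ± 0.22 for YAP1, -0.11 ± 0.17 for TEAD1, -0.65 ± 0.39 for TEAD2 and 0.20 ± 0.31 for CCN1. Of the 25 Hippo genes 7 were higher and 3 lower (median 0.50, against 0.01 over all genes), with TEAD4 and the FERM-domain protein FRMD6 leading (FRMD6 2.55 ± 0.43, adjusted p = 1.79e-06) and TAOK3 lower (-0.91 ± 0.25, adjusted p = 0.0027). Of the 12 further targets 5 were higher and 4 lower, with IGFBP3 at 57.9 and 80.5 CPM against 0.676 and 2.10 CPM from 5 UMIs (5.67 ± 0.58, adjusted p = 4.76e-12). F3 (-3.34 ± 0.51, adjusted p = 2.53e-07) and NT5E (-3.00 ± 0.53, adjusted p = 4.01e-06) were lower. Endothelial cells were the shallowest class (median 1959.5 UMIs), had a mean mitochondrial share of 3.11% and 3.97%, and carried HOPX at 299 and 331 CPM, 7 perivascular markers at a summed 241 and 377 CPM (1 and 0 of them at 0) and NEUROD6 at 111 and 113 CPM. In HOPX and CLU glia these were 1226 and 1254 CPM, 122 and 119 CPM (0 and 1 of them at 0) and 18.3 and 24.5 CPM. Endothelial cells were not split by division. Their summed division markers were 347 and 322 CPM, against 45.3 and 58.7 CPM in HOPX and CLU glia. The part of all these features in the endothelial results was not tested.

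**Figure D3:**
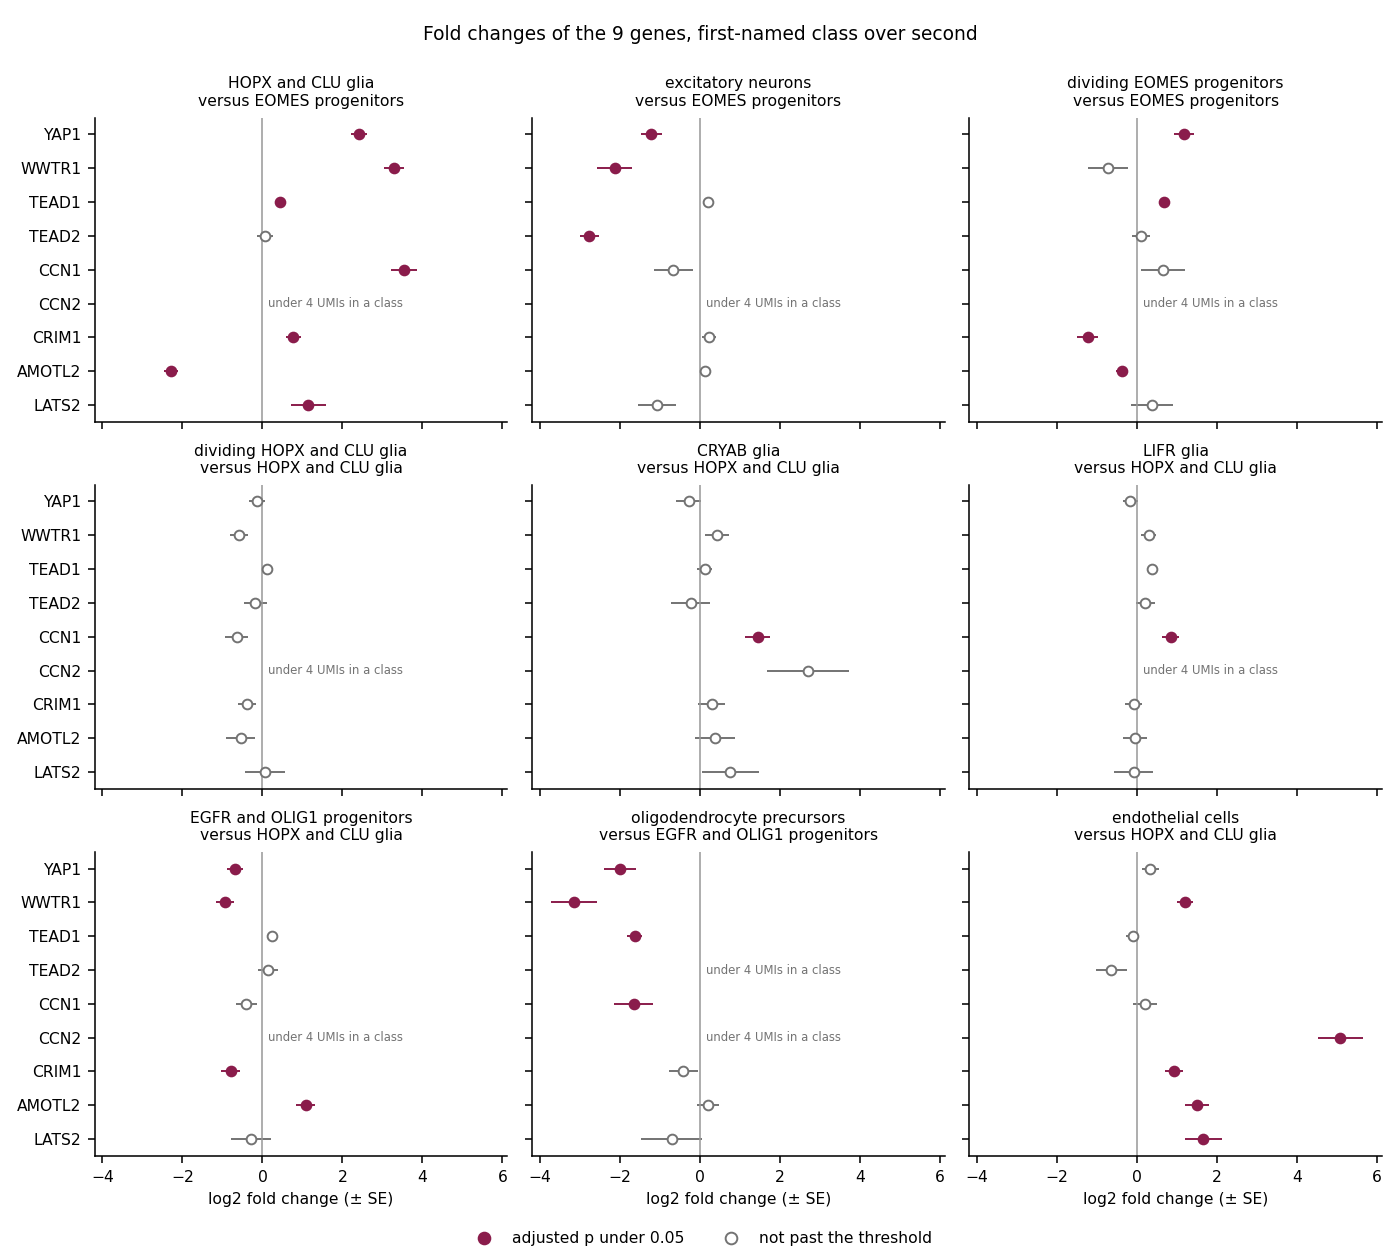
Log2 fold change of each gene, first-named class over second (x axis, ± SE, edgeR fit over n = 2 libraries per class), in 9 comparisons; filled points passed an adjusted p of 0.05, open points did not, and no point is drawn where a class had 3 UMIs or fewer. YAP1 and WWTR1 lie right of 0 in HOPX and CLU glia against EOMES progenitors (2.41 and 3.29) and left of 0 in excitatory neurons (-1.22 and -2.13) and oligodendrocyte precursors (-2.00 and -3.15), where AMOTL2 lies left of 0 in the first (-2.28) and near 0 in the others.

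YAP1 differed with division in EOMES progenitors but not, by the test, in HOPX and CLU glia; the EOMES comparison and the difference between both were added after the levels had been seen. Dividing EOMES progenitors had 34.1 and 37.2 CPM of YAP1, against 15.2 and 15.1 CPM in EOMES progenitors (log2 fold change 1.17 ± 0.25, adjusted p = 0.000151). Dividing HOPX and CLU glia had 84.9 and 74.3 CPM, against 89.9 and 74.1 CPM in HOPX and CLU glia (-0.13 ± 0.19, adjusted p = 0.736). In EOMES progenitors the libraries of the 2 states did not overlap, and in glia they did. The difference between the 2 changes was 1.30 ± 0.32 (interaction term, adjusted p = 0.00574). YAP1 was the only one of the 9 genes called in it, where 3.4% of all genes were called higher and 0.969% lower (4.37% in all). That split was 425 higher and 121 lower, and 350 and 176 with no TMM scaling. By edgeR's interaction test 4 of the 9 had an unadjusted p under 0.05. TEAD1 (0.55 ± 0.18, adjusted p = 0.0686) was called in 3 of 8 alternatives. CCN1 had 1.30 ± 0.63 (adjusted p = 0.316), and CRIM1 went the other way (-0.85 ± 0.36, adjusted p = 0.217). The YAP1 interaction was not called in thinned cells (1.24, adjusted p = 0.396) or with gates 1 UMI stricter (1.16, adjusted p = 0.0572). The YAP1 change in EOMES progenitors was not called in thinned cells (0.87, adjusted p = 0.189).

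TEAD1 was higher in dividing EOMES progenitors, at 198 and 189 CPM, against 128 and 105 CPM in EOMES progenitors (log2 fold change 0.67 ± 0.12, adjusted p = 9.87e-06), in each of the 8 alternatives. CRIM1 was lower, at 12.2 and 15.1 CPM against 34.0 and 21.5 CPM (-1.23 ± 0.26, adjusted p = 0.000133; -0.51 in library B alone). AMOTL2 was called lower (76.0 and 76.7 CPM against 102 and 89.0 CPM, -0.38 ± 0.15, adjusted p = 0.0406) but in only 1 of 8 alternatives. That is 2 of 9 higher and 2 lower, where 14.4% of all genes were called higher and 16.6% lower (31.0% in all). WWTR1 (-0.73 ± 0.50, adjusted p = 0.286) and TEAD2 (0.10 ± 0.22, adjusted p = 0.783) did not pass, nor did CCN1, CCN2 and LATS2.

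Among the 25 Hippo genes, 4 were higher and 3 lower in dividing EOMES progenitors. Over all genes, 14.4% were called higher and 16.6% lower (31.0% in all). FAT1 had 62.5 and 55.8 CPM, against 19.7 and 18.3 CPM (log2 fold change 1.61 ± 0.20, adjusted p = 1.08e-09), and AMOTL1, the angiomotin relative of AMOTL2, 28.0 and 25.6 CPM, against 9.28 and 11.1 CPM (1.44 ± 0.28, adjusted p = 3.56e-05). DCHS1 was lower (-0.72 ± 0.18, adjusted p = 0.00134). Dividing EOMES progenitors also held more UMIs per cell (median 7312 against 4128.5), more SOX2 (602 and 542 CPM against 235 and 253 CPM) and more HOPX (28.8 and 33.7 CPM against 18.8 and 15.9 CPM); their part in these results was not tested.

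In glia, none of the 9 genes was called between dividing and non-dividing cells, where 17.1% of all genes were, 7.71% higher and 9.41% lower. That split was 962 higher and 1175 lower, 1145 and 796 with no TMM scaling, and 892 and 732 by DESeq2. By edgeR's test 2 of the 9 had an unadjusted p under 0.05, and DESeq2 called none. These were WWTR1 (48.3 and 37.1 CPM against 61.9 and 65.7 CPM, -0.59 ± 0.23, adjusted p = 0.0656) and CCN1 (23.6 and 32.2 CPM against 37.2 and 41.2 CPM, -0.64 ± 0.29, adjusted p = 0.131). Both were called lower with gates 1 UMI stricter (adjusted p = 0.0268 and 0.0189). At that setting the non-dividing class was larger and could include cells with 3 division UMIs. None of the 25 Hippo genes was called by edgeR or DESeq2, though 5 had an unadjusted p under 0.05 by edgeR, whereas 4 of the 12 further targets were lower, led by GADD45A (-1.45 ± 0.44, adjusted p = 0.0132) and F3 (-1.22 ± 0.28, adjusted p = 0.000632).

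**Figure D4:**
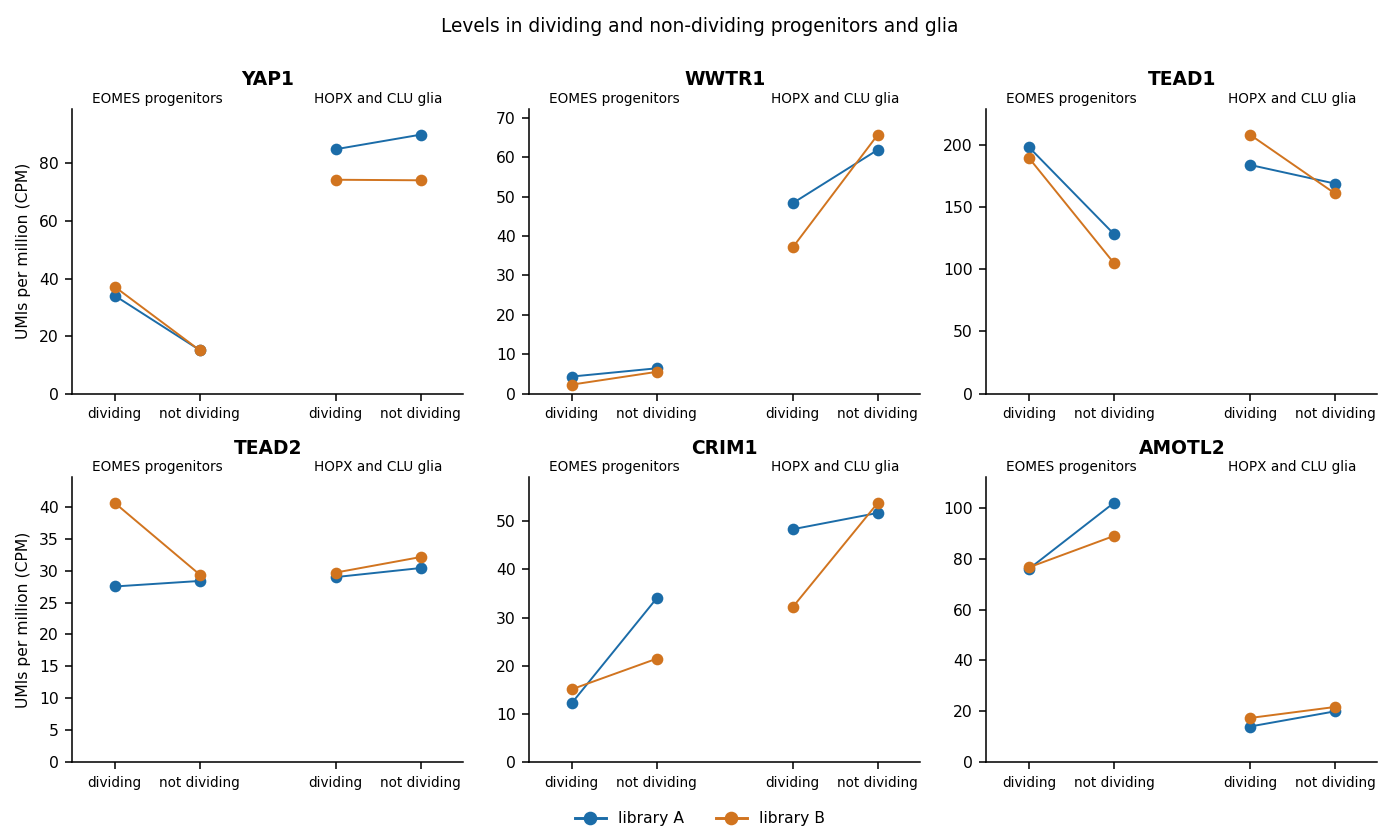
Level in CPM (y axis, from 0) of 6 of the genes in dividing and non-dividing cells of the EOMES and the HOPX and CLU gates (x axis), with 1 line per library. YAP1 is higher in dividing EOMES progenitors in both libraries (34.1 and 37.2 CPM against 15.2 and 15.1 CPM), while in glia its lines are nearly level.

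Across the 12 class means, the members did not all follow the same order. On log2(CPM + 10), Pearson's r was 0.81 between YAP1 and WWTR1, 0.88 between YAP1 and CCN1, 0.92 between WWTR1 and LATS2 and 0.86 between LATS2 and CRIM1. AMOTL2 ran the other way, with r = -0.51 against YAP1 (-0.33 in library A and -0.66 in library B) and -0.55 against WWTR1 (-0.41 in library A and -0.72 in library B), and TEAD1 and TEAD2 had r = 0.81 with each other. These are descriptions over 12 classes that share their libraries and differ in depth.

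The genes outside the list whose pattern over the 12 classes was most like each member were taken from 6702 genes with at least 50 CPM in some class. They were ZIC5 (r = 0.97) and TCIM (0.96) for YAP1, and SERPINH1 (0.95) and ITGA6, an integrin subunit (0.94), for WWTR1. For the TEAD factors they were WDR5 (0.92) and ENOX2 (0.90) with TEAD1, and ADGRV1 (0.92), the Hedgehog-pathway factor GLI2 (0.91) and ZBTB20 (0.91) with TEAD2. DYNLRB2 (0.96), RSRP1 (0.96) and the proteoglycan SDC2 (0.96) were most like CCN1, and AHNAK (0.99), the endothelial nitric oxide synthase NOS3 (0.98) and CAVIN1 (0.97) most like CCN2. AMOTL2 was closest to PKIA (0.93), the ephrin receptor EPHB1 (0.93) and the potassium channel subunit KCNMB2 (0.92). ARHGAP29 was near both LATS2 (0.96) and CRIM1 (0.92).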

How the data were processed

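Single-cell RNA was measured in 2 replicate libraries of WT ferret dorsal cortex. The deposited file holds raw UMI counts per gene and cell, which the authors made with Cell Ranger (named in the submitters' processing notes). The release used and the genome behind the counts were not given in the sources used here, so no positions or sequences are printed. All 9 names matched a symbol in the RefSeq annotation of the ferret.

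The cell filter asked for 500 genes or more and a mitochondrial share of 10% or less (14 cells removed). CPM scales a class's UMIs to a total of 1000000. Gates needed 2 or 3 UMIs of their markers, and the division gate 3 UMIs of MKI67, TOP2A, CENPF and NUSAP1. Where gates within glia overlapped, precursors came first, then EGFR and OLIG1, CRYAB, LIFR, and last HOPX and CLU. No doublet caller was run; 624 cells in gates of more than 1 lineage were left out, and 4703 cells were in no gate. Classes needed 20 cells in each library: perivascular cells (32 and 13), ependymal cells (1 and 14) and erythroid cells (6 and 3) were not tested, so the planned test of perivascular against endothelial cells was not made.

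UMIs were summed per class and library. edgeR 4.0.16 in R 4.3.3 fitted the 24 sums of 12 classes with library as a term (TMM scaling, filterByExpr, quasi-likelihood F test), which leaves 11 residual degrees of freedom, tested 12483 genes and left out 45 gating genes. The fit was tested on simulated data with a fixed spread and changes only in genes with more UMIs. That test does not cover sparse genes such as CCN2. The libraries pair the class sums because every class was taken from the same 2 libraries. Shares of cells and of UMIs carry exact 95% (Clopper-Pearson) intervals, CPM exact Poisson ones; all cover counting error only. Alternatives were DESeq2 1.42.0, no TMM, no filter on low counts, only the classes compared and no library term. Others were each library alone, cells thinned to 1500 UMIs, gates 1 UMI stricter and no cell filter. The stricter gates made some classes larger, since cells could also leave a competing gate or the division gate.

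The 9 genes, the gates, the lists and the tests were chosen with earlier results of these data known. All 9 genes were tested in every comparison that was run, but not every test is printed with its values. Of the Hippo list (25 genes) and the target list (16, of which 12 could be tested), the called genes with the 2 most positive and 2 most negative fold changes could be named. Division in EOMES progenitors and its interaction with division in glia were added after the levels were seen.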

Additional observations from a re-analysis of the deposited data

Results flagged for a closer look

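The change of YAP1 with division differed between EOMES progenitors and HOPX and CLU glia, by a test of the difference itself. YAP1 measured 34.1 and 37.2 CPM in dividing EOMES progenitors, against 15.2 and 15.1 CPM in non-dividing ones, and 84.9 and 74.3 CPM in dividing HOPX and CLU glia, against 89.9 and 74.1 CPM in non-dividing ones. The difference between the 2 log2 changes was 1.30 ± 0.32 (edgeR interaction term, adjusted p = 0.00574 over 12483 genes, 0.000892 to 0.396 over 8 alternatives). It was positive in both libraries. The comparison was added after the levels had been seen.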

How the results depend on the processing

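With each cell thinned to 1500 UMIs, 8144 genes could be tested and 15 of the 31 calls of the 9 genes were lost, 3 of them with a log2 fold change no smaller than before. The genes called then were 3478 in place of 6002 for HOPX and CLU glia against EOMES progenitors, 2386 in place of 3764 for excitatory neurons, 1773 in place of 3870 for dividing EOMES progenitors, 680 in place of 2137 for dividing HOPX and CLU glia, 111 in place of 511 for CRYAB glia, 56 in place of 231 for LIFR glia, 1859 in place of 3639 for EGFR and OLIG1 progenitors, 686 in place of 1642 for oligodendrocyte precursors and 197 in place of 546 for the interaction of division. Of the 9 genes, thinning left 0 called in CRYAB glia, LIFR glia, EGFR and OLIG1 progenitors and the interaction, and 2 each in oligodendrocyte precursors and dividing EOMES progenitors.

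Fitting only the classes compared called 2 of the 9 genes in CRYAB glia, LIFR glia and the interaction. DESeq2 called 0 in LIFR glia and 2 in the interaction, and gates 1 UMI stricter called 2 in dividing HOPX and CLU glia; CRYAB glia then had under 20 cells in library B and gave no value. The cause of these shifts beyond fewer UMIs or samples was not tested. No direction of a called gene turned in any alternative run. Without the replicate block (library), which pairs the class sums, 5609 genes were called in place of 6002 in HOPX and CLU glia against EOMES progenitors and 378 in place of 546 in the interaction, and of the member calls AMOTL2 in dividing EOMES progenitors was lost (adjusted p = 0.0789); it changed no other member call.

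The class with the highest mean stayed the same for 8 of the 9 genes in thinned cells, 6 with stricter gates, 9 with no cell filter, 7 without library A and 8 without library B. Ratios from 1 library alone have no test. Without library A 41 of 83 moved by over 1 SD between the libraries, and without library B 22 of 84. That SD comes from the same library ratios, which also lack the TMM scaling of the main fit. These counts therefore do not measure how firm a result is. Perivascular against endothelial cells was not run, since library B held only 13 perivascular cells and 20 were required.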
